A study of Mus musculus with 2 samples.

Results

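The mitochondrial fatty acid oxidation enzymes were followed in mouse skeletal muscle on 2 Affymetrix Mouse Genome 430 2 arrays. A list of 32 genes was taken, covering acyl-CoA activation, the carnitine shuttle, the steps of beta-oxidation by chain length, the electron transfer flavoprotein and the acyl-CoA thioesterases. A probe set belonged to it when the platform annotation gave it exactly 1 gene symbol and that symbol was on the list. By this rule 31 of the 32 genes had at least 1 probe set and 1, Acsl1, had none named here, and the 31 genes had 53 of the 45037 probe sets that are not array controls. The whole table named 18193 genes in this way.

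One array, called the wild-type pool, carried total RNA from skeletal muscle of 3 wild-type mice, combined before labelling. The other, called the null pool, carried the combined RNA of 3 mice labelled Jhdm2a null. All were males aged 3 months, from 129 embryonic stem cells with 4 generations of backcrossing onto C57BL/6, so segments of 129 origin can remain. Which muscle was taken, and which part of the gene was disrupted, are not given in the sources used here. Jhdm2a is now named Kdm3a and encodes a demethylase of histone H3, and the question is how muscle gene expression differs where it is disrupted. A single pooled array per genotype allows no test and no replicate check, and every higher or lower below is a description of these 2 arrays, and their small number limits the precision.

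The values are MAS5 signal intensities on a linear scale. Both arrays had a 2% trimmed mean of 500 and a median signal of 112. A probe set counted as measured when it read above a floor of 182, the 60th percentile of all signals, on both arrays, and 9696 genes were measured in this sense. A gene's value is the mean log2 ratio, null over wild type, of its measured probe sets. Probe sets of the same gene differed with a pooled SD of 0.29 (log2) over 3719 genes. This is a spread between probe sets on the same arrays, and it covers no error between arrays and no difference between mice. The targeted gene, Kdm3a, read 406 in the wild-type pool and 488 in the null pool from its 1 probe set (log2 ratio 0.26). It did not read lower in the null pool, and since its place relative to the disruption is not known here it cannot check the labels. The pools are named by their labels throughout. All 15 skeletal muscle fibre markers were measured, with a median log2 ratio of 0.18, and troponins Tnnt3 and Tnni2 had 0.10 and 0.24.

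Long-chain fatty acids are activated to acyl-CoA esters, carried into the mitochondrion as acylcarnitines, and shortened there in repeated rounds of dehydrogenation, hydration, a further dehydrogenation and thiolytic cleavage. Dehydrogenases, hydratases and thiolases of different chain-length preference share the work, and the electrons of the acyl-CoA dehydrogenases reach the respiratory chain through the electron transfer flavoprotein and its oxidoreductase. Oxidative muscle fibres, heart, brown fat and liver are rich in these enzymes. Nuclear receptors of the PPAR and estrogen-related receptor families are known regulators of many of their genes.

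Most enzymes of the pathway read lower in the null pool, nearly all by a small amount. Of the 31 genes with a probe set, 30 were measured, and the exception, Acsf2, was above the floor in the wild-type pool alone. Among the 30, 28 had a log2 ratio below 0, against 44.3% of all measured genes. The median was -0.41 (1.33-fold lower), with a mean of -0.52 ± 0.57 (SD, 30 genes), and the median of all 9696 measured genes 0.04. At least 1.5-fold lower were 8 of the 30, against 6.34% of all measured genes, and 0 were 1.5-fold higher, against 3.38%. At 2-fold 2 members were lower, against 2.37% of all measured genes, and 0 higher, against 0.371%. By single probe sets, 38 of the 45 measured read lower in the null pool, where 44.4% of all measured probe sets with 1 symbol did. Of the 30 members, 22 had a mean signal of at least 2000, and 20 of these 22 were below 0 and 5 at least 1.5-fold lower. Among all 1674 genes that bright, the shares were 32.4% below 0 and 5.08% at least 1.5-fold lower.

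Markers of fat and liver also read lower in the null pool. Of 10 brown adipocyte markers 9 had a probe set and 6 were measured, all 6 lower, and the summed signal of the 9 over 17 probe sets was 37542 in the wild-type pool and 2985 in the null pool. The median log2 ratio of the 6 was -0.84, and it depended on the floor. It was -2.76 over 8 genes with the floor at the 40th percentile and -1.25 over 9 with no floor. With probe sets above the floor in at least 1 pool it was -2.38 over 8 genes. Ucp1, the uncoupling protein of brown fat, read 14885 and 283, 52.5-fold lower, and the lipid droplet protein Cidea 13567 and 367, 37.0-fold lower, so these 2 probe sets make up most of the sum in the wild-type pool. Ebf2, a factor of brown fat identity, had -1.25, while Dio2, Zic1 and Prdm16, at -0.34, -0.34 and -0.43, lay within 1.5-fold, these 4 being named after their values were seen. The value of Dio2 is from its dimmest probe set in the wild-type pool, which read 248 and 196. Its brighter probe sets, under the floor in the null pool, read 958 and 177 (-2.43), and 359 and 158 (-1.18). Otop1 and Elovl3 stood above the floor in the wild-type pool alone, at least 14.8-fold and 11.5-fold lower, Lhx8 in neither, and Gyk had no probe set with 1 symbol. Of 14 adipocyte markers 9 were measured, all lower, with summed signals of 118628 and 33342 over 18 probe sets. There Fabp4, a fatty acid binding protein, and the desaturase Scd1 had log2 ratios of -1.11 ± 0.10 and -3.22 ± 1.91 (SD of 2 probe sets each). Of 16 hepatocyte markers 3 were measured, all lower, 7 stood above the floor in the wild-type pool alone, and the summed signals were 24622 and 3740 over 23 probe sets. Among them Cyp2e1, a cytochrome P450, was 2.55-fold lower, and the thyroxine carrier Ttr was at least 20.4-fold lower, its brightest wild-type signal set against the floor. Of the 16 hepatocyte markers 5 were under the floor on both arrays. In whole tissue, fewer cells of a type and less RNA per cell cannot be told apart, and the part of brown fat, white fat and liver RNA in the lower signals of the oxidation enzymes was not tested.

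**Figure D1:**
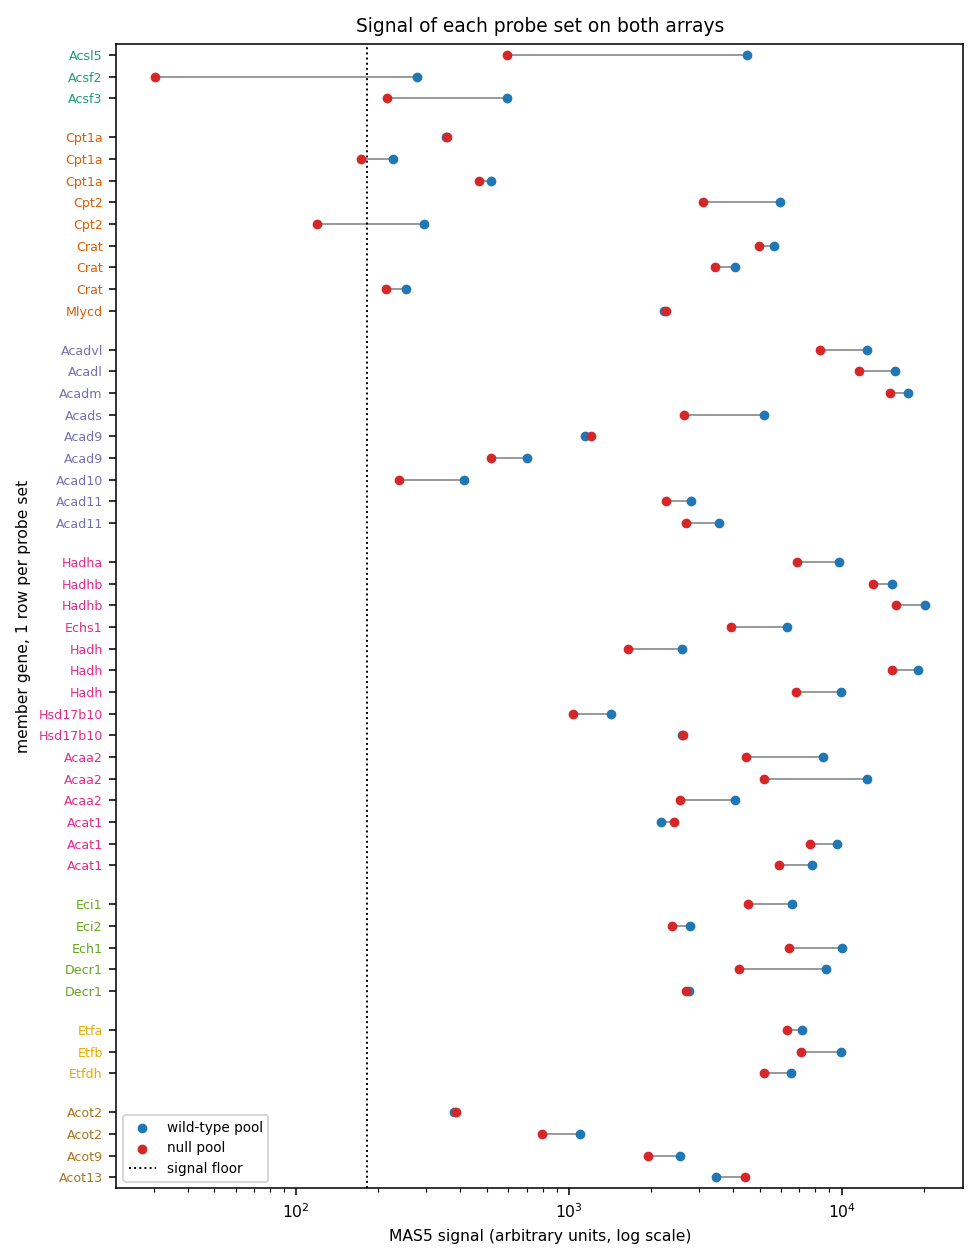
MAS5 signal (log axis) of each probe set of the oxidation enzymes that is above the floor on at least 1 array, with the wild-type pool in blue and the null pool in red, joined by a line. Gene names are coloured and spaced by role from activation at the top to thioesterases at the bottom, and the dotted line is the floor of 182. The red point lies to the left for most probe sets, farthest for Acsl5 and Acsf2, and to the right for the rest, Acot13 among them.

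Because so many members read lower together, their promoters were searched for nuclear receptor motifs. RefSeq windows on GRCm38.p6, from 250 bases before to 50 bases after the start of transcription, were at hand for 26 of the 32 genes (27 windows, Acsl1 having 2) and for 32851 windows in all. The full PPAR-type element is a direct repeat of AGGTCA with 1 spacer base, and the estrogen-related receptor element is TCAAGGTCA. Searched as exact letters on both strands, each was in 0 of the 27 windows, against 0.0396% and 0.423% of all windows. With shares this low, 0 matches cannot tell the members from other genes. The nuclear receptor hexamer AGGTCA, which both elements contain, was in 4 of the 27 windows on either strand (14.8%), against 16.3% of all windows. The 4 genes differ in their log2 ratio, with Echs1 at -0.69, Acadvl at -0.58, Acadm at -0.22 and Cpt1a at -0.06. Their windows up to the start of transcription are shown to let the matches be read in context, with the hexamer in capitals (TGACCT where it lies on the other strand). They are chr7:140116422-140116671 on the minus strand for Echs1, chr11:70015429-70015678 minus for Acadvl, chr3:153944644-153944893 minus for Acadm and chr19:3323051-3323300 plus for Cpt1a.
Echs1: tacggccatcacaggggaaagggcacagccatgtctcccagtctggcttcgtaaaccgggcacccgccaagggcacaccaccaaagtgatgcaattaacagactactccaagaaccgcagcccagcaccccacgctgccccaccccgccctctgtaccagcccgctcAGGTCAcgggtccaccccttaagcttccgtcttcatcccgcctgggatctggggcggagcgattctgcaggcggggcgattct
Acadvl: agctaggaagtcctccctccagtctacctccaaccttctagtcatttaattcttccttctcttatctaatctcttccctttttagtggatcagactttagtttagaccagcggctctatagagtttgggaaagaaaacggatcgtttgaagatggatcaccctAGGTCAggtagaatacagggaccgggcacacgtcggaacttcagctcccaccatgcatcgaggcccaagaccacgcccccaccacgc
Acadm: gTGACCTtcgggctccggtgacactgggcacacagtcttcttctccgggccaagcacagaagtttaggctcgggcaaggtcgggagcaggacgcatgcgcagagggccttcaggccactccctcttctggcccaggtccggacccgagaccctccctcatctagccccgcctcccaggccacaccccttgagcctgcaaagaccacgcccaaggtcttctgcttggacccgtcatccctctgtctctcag
Cpt1a: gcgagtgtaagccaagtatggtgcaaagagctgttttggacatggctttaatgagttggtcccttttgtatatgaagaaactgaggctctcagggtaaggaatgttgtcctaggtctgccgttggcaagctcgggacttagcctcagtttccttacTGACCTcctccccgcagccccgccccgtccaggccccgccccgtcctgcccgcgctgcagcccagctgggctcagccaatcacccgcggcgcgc
The match begins 83 bases before the start in Echs1, 87 in Acadvl, 94 in Cpt1a and 249 in Acadm. A further motif was chosen after the values had been seen, the palindromic core of the nuclear respiratory factor site, whose letters are the capitals below. It was in 2 of the 27 windows (7.41%), against 0.971% of all windows, those of Etfdh and Acad10. The stretches that hold it, in capitals, are chr3:79628861-79628920 minus for Etfdh and chr5:121660509-121660543 minus for Acad10.
Etfdh: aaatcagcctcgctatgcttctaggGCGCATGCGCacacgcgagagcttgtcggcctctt
Acad10: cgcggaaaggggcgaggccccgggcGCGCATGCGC
In Acad10 the core begins 8 bases before the start. These matches describe letters in a short window only. The median GC content was 60.3% over the members' windows and 52.7% over all windows.

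Acsl5 and Acsf3, of acyl-CoA activation, were the lowest of the measured enzymes of the pathway. Acsl5, a long-chain acyl-CoA synthetase, read 4485 in the wild-type pool and 590.2 in the null pool, 7.60-fold lower (log2 ratio -2.93), and 0.361% of all measured genes lay below it. Acsf3, the synthetase of malonyl-CoA within mitochondria, read 594.5 and 215.5, 2.76-fold lower (-1.46). Acsf2, a medium-chain acyl-CoA synthetase, read 277 and 30.3, and set against the floor it was at least 1.52-fold lower. All 3 had the higher signal in the wild-type pool, each from 1 probe set, so no spread between probe sets can be given for them. In the null pool the signal of Acsf3 lay near the floor and that of Acsf2 under it.

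In the carnitine shuttle 1 of the 4 members, Cpt2, passed 1.5-fold. Cpt2, the inner-membrane carnitine palmitoyltransferase that returns acyl groups to CoA, read 5933 in the wild-type pool and 3108 in the null pool, 1.91-fold lower (log2 ratio -0.93), and a dim second probe set read 294 and 119. Cpt1a, the liver form of the outer-membrane transferase that commits acyl groups to the shuttle, read 354 and 358 in one measured probe set and 516 and 469 in the other, with a mean log2 ratio of -0.06 ± 0.11 (SD of 2 probe sets). Its other probe set, under the floor in the null pool, read 225 and 173 (-0.38). By their measured probe sets Cpt2 was lower than Cpt1a on the log2 scale, while the muscle form of the outer one, Cpt1b, had no probe set with 1 symbol. Crat, which makes acetylcarnitine from acetyl-CoA, read 5655 and 4986, 4052 and 3439, and 253 and 213, all lower in the null pool by little, at -0.22 ± 0.04 (SD of 3 probe sets). Mlycd, which removes the malonyl-CoA that inhibits the outer transferase, read 2233 and 2270 (0.02), and this sign turned in 2 of the 11 alternative settings. The carrier between both transferases, Slc25a20, is no member by the rule, and at -0.77 ± 0.08 (SD of 2 probe sets) it was near Cpt2.

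All 7 acyl-CoA dehydrogenases had a log2 ratio below 0, and their order did not follow chain length. Acadvl, for very long chains, read 12434 in the wild-type pool and 8314 in the null pool (log2 ratio -0.58), just short of the 1.5-fold limit. Acadl, for long chains, read 15668 and 11607 (-0.43), and Acadm, for medium chains, 17545 and 15047 (-0.22). Acads, for short chains, read 5183 and 2645, 1.96-fold lower (-0.97), the lowest of the 7 dehydrogenases. From very long to medium chains the difference became smaller, and for short chains it was largest, each from 1 measured probe set. Acadvl and Acadl, and Acadl and Acadm, differed by less than the pooled probe-set SD of 0.29, and Acadm and Acads by more. Here and below, that SD covers no error between arrays and cannot decide whether 2 genes differ.

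The remaining dehydrogenases were dimmer or less uniform. Acad9, which is also an assembly factor of respiratory complex I, read 1147 and 1208 in one probe set (0.07) and 702 and 516 in the other (-0.44), a mean of -0.18 ± 0.37 (SD of 2 probe sets). Acad10 read 411 and 238, 1.73-fold lower (-0.79). Acad11 read 2808 and 2271, and 3564 and 2681, at -0.36 ± 0.07 (SD of 2 probe sets). Of the 7, only Acads and Acad10 passed 1.5-fold. Acyl-CoA dehydrogenases of amino acid breakdown, which pass electrons to the same flavoprotein, were named after their values were seen. Acad8, Ivd, Gcdh and Acadsb had 0.09, -0.13, -0.07 and -0.24.

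**Figure D2:**
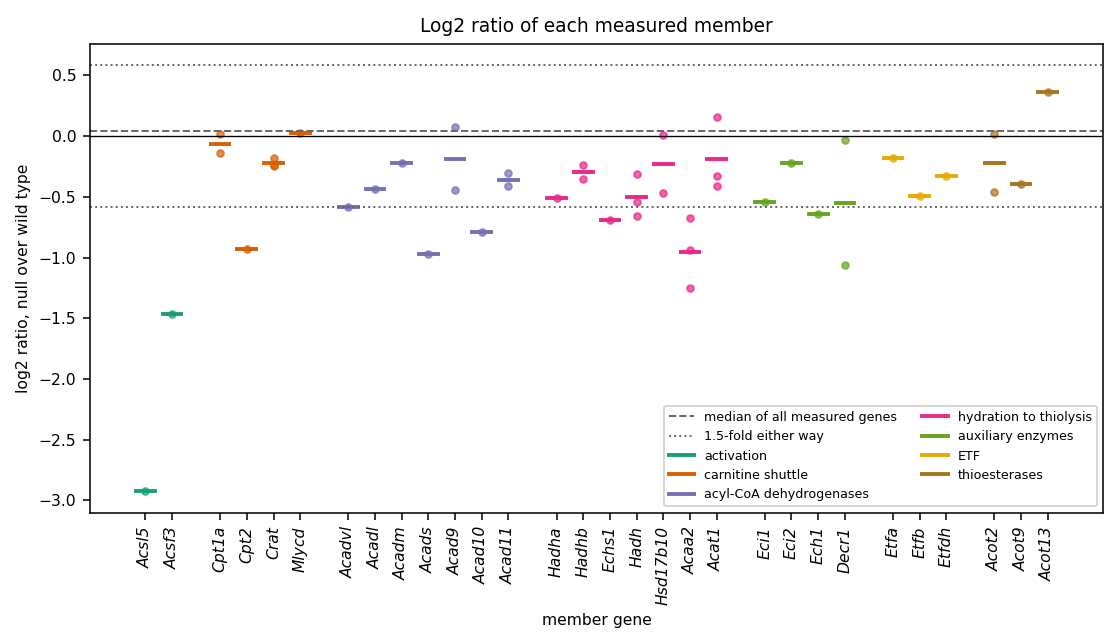
Log2 ratio, null over wild type, of each measured oxidation enzyme, by role. Points are measured probe sets, bars the mean per gene, the dashed line the median of all measured genes (0.04) and the dotted lines 1.5-fold either way. The bars of 28 of the 30 genes lie below 0, and those of Mlycd and Acot13 above it.

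The subunits of the trifunctional protein, which carries out hydration, the further dehydrogenation and thiolysis of long-chain substrates, were both lower by less than 1.5-fold. Hadha, the subunit with hydratase and dehydrogenase activity, read 9736 in the wild-type pool and 6855 in the null pool (log2 ratio -0.51). Hadhb, the thiolase subunit, read 15314 and 12982 in one measured probe set and 20163 and 15775 in the other, at -0.30 ± 0.08 (SD of 2 probe sets). Both genes are transcribed away from each other from start sites 273 bases apart on chromosome 5, so their RefSeq promoter windows share 228 bases, chr5:30155003-30155230, shown on the plus strand, the strand of Hadhb, because 1 stretch of sequence lies before both genes.
Hadha and Hadhb: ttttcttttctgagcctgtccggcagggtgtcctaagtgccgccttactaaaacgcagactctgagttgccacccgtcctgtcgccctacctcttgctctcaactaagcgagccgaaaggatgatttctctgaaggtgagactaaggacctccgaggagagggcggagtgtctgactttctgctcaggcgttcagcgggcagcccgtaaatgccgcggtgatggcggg
The log2 ratios of the pair differed by less than the pooled probe-set SD of 0.29.

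Among the enzymes of hydration, further dehydrogenation and thiolysis the thiolase Acaa2 was lowest. Acaa2, the ketoacyl-CoA thiolase of the matrix, read 8518 and 4455, 12356 and 5189, and 4070 and 2555 in its 3 probe sets, with a mean log2 ratio of -0.95 ± 0.29 (SD of 3 probe sets), 1.94-fold lower. Each probe set alone passed 1.5-fold. Echs1, the short-chain enoyl-CoA hydratase, read 6315 and 3913, 1.61-fold lower (-0.69). Hadh, the hydroxyacyl-CoA dehydrogenase of medium and short chains, read 2588 and 1643, 19043 and 15344, and 9946 and 6812 in its 3 probe sets, at -0.50 ± 0.18 (SD of 3 probe sets). Hsd17b10, a hydroxyacyl-CoA dehydrogenase that also serves in mitochondrial RNase P, read 1424 and 1032 in one probe set (-0.46) and 2598 and 2621 in the other (0.01). Acat1, the acetoacetyl-CoA thiolase that also acts on ketone bodies and isoleucine, read 2172 and 2425 (0.16), 9639 and 7685 (-0.33), and 7796 and 5876 (-0.41), a mean of -0.19 ± 0.31 (SD of 3 probe sets). The probe sets of the last 2 genes disagree in sign.

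Auxiliary enzymes, which bring unsaturated fatty acids into the cycle, were all lower. Ech1, the dienoyl-CoA isomerase, read 9994 in the wild-type pool and 6413 in the null pool, 1.56-fold lower (log2 ratio -0.64). Eci1 and Eci2, both enoyl-CoA isomerases, read 6580 and 4519 (-0.54) and 2777 and 2384 (-0.22). Decr1, the dienoyl-CoA reductase, read 8795 and 4218 in one probe set (-1.06) and 2751 and 2684 in the other (-0.04), so its mean of -0.55 ± 0.72 (SD of 2 probe sets) rests on probe sets that do not give the same answer. Over all members, 11 had several measured probe sets, and in 5 of the 11 these had opposite signs. Of the 8 members at least 1.5-fold lower, only Acaa2 had more than 1 measured probe set, so for the others no second measured probe set bears on the value.

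The electron transfer flavoprotein was lower by less than 1.5-fold in all its parts. Etfa, the alpha subunit, read 7139 in the wild-type pool and 6303 in the null pool (log2 ratio -0.18), and Etfb, the beta subunit, 9956 and 7071 (-0.49). Etfdh, the oxidoreductase that hands the electrons to ubiquinone, read 6502 and 5188 (-0.33). The subunits Etfa and Etfb differed by about that pooled SD of 0.29. Among the thioesterases, which release free fatty acids from CoA, Acot2 read 379.5 and 384 in one probe set (0.02) and 1098 and 797 in the other (-0.46), a mean of -0.22 ± 0.34 (SD of 2 probe sets), and Acot9 read 2552 and 1943 (-0.39). Acot13 read 3450 and 4428, 1.28-fold higher (0.36), and was above 0 in all 11 alternative settings. Its value rests on 1 probe set, so those that choose among probe sets could not change it. A further 2 probe sets carry a thioesterase of the list together with another gene symbol and were not used.

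**Figure D3:**
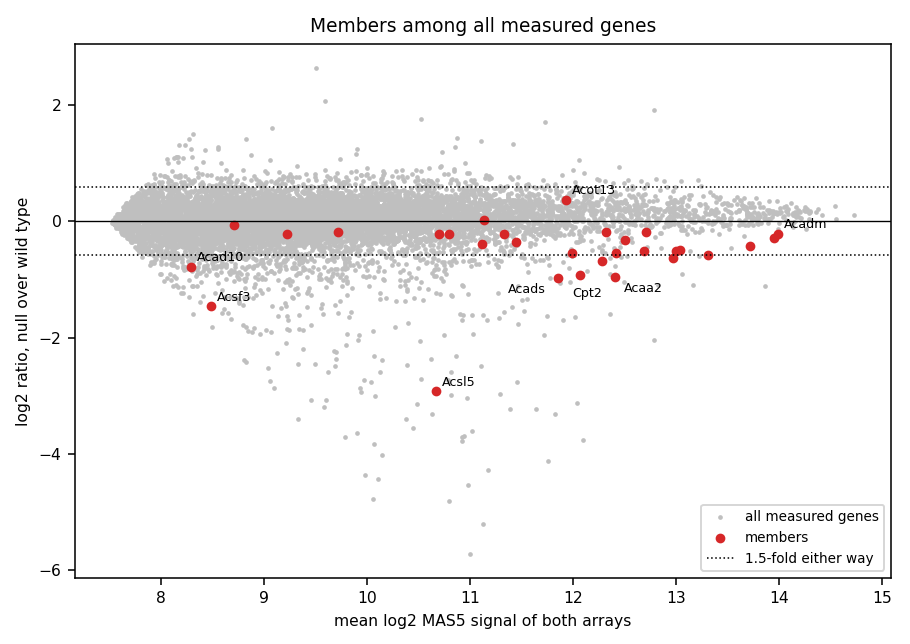
Log2 ratio, null over wild type, against the mean log2 signal of both arrays for all 9696 measured genes (grey) and the 30 measured oxidation enzymes (red). Dotted lines mark 1.5-fold either way. Of the members 28 lie below 0 and 8 below the lower dotted line, Acsl5 lies at -2.93 among scattered other genes that read far lower in the null pool, and Acot13 lies above 0.

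Other genes of mitochondrial fatty acid handling did not share one direction. Of 25 listed, 20 were measured, with a median log2 ratio of -0.09, 14 of them below 0, 4 at least 1.5-fold lower and 3 at least 1.5-fold higher. For this list and those that follow, the shares over all measured genes are the 44.3% below 0, 6.34% lower and 3.38% higher given above. The lower ones were Acot11, a thioesterase abundant in brown fat, at -2.31, and Acacb, a carboxylase that makes malonyl-CoA, at -1.05. Also among them were Slc25a20, at -0.77, and Hibch, of valine breakdown, at -0.71. The higher ones were the acyl-CoA synthetases Acsl4, at 0.61 ± 0.47 (SD of 2 probe sets), and Acsl6, at 0.75, and the ketone body enzyme Bdh1, at 0.64 ± 0.09 (SD of 2 probe sets). Pdk4, a kinase that limits pyruvate oxidation, and Fabp3, the fatty acid binding protein of muscle, had -0.11 and 0.25. Peroxisomal oxidation genes had a median of -0.41 over 12 of 19 listed, the same as the mitochondrial enzymes to 2 decimals, with 9 of 12 below 0 and 2 at least 1.5-fold lower. With the floor at the 75th percentile that median was -0.09 over 9 genes. Those 2 were Ehhadh, the bifunctional enzyme, at -1.83 and Hsd17b4, the other multifunctional enzyme, at -0.77. Acaa1b, a peroxisomal thiolase, and Hacl1, the lyase of alpha-oxidation, stood above the floor in the wild-type pool alone, at least 6.22-fold and 2.33-fold lower. The sterol carrier Scp2 and the phytanoyl-CoA hydroxylase Phyh had -0.42 and -0.09.

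Other mitochondrial pathways had medians near that of all genes in the main setting. The tricarboxylic acid cycle had a median of -0.03 over 17 genes, 9 of them below 0 (44.3% of all measured genes) and 1 at least 1.5-fold lower (6.34%), Idh3b at -1.23 ± 2.39 (SD of 3 probe sets, 1 of them of opposite sign to the others). Sucla2 and Mdh2, of the same cycle, had -0.13 and 0.16. The respiratory chain had a median of 0.05 over 21 genes, 6 of them below 0 and 0 past 1.5-fold either way, with the cytochrome oxidase subunits Cox5a and Cox8b at 0.05 and -0.13. After loess the tricarboxylic acid cycle had a median of -0.12, with 12 of 17 genes below 0. The respiratory chain then had 15 of 21 below 0, and all measured genes 50.7%. The medians of both lists changed sign under other settings, that of the respiratory chain to -0.02 after quantile normalization and -0.06 after loess. The median of the oxidation enzymes, at -0.41, ranged from -0.51 to -0.40 over the same settings. No test compares these lists, since there is 1 array per genotype.

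Among 16 regulators of the pathway 15 were measured, with a median log2 ratio of 0.00, 7 of them below 0 and 2 at least 1.5-fold lower. The 7 of 15 are near the 44.3% of all measured genes below 0. Ppara, the fatty acid sensing receptor that drives many of these enzymes, read 2220 and 809 in its brightest probe set, and its 3 probe sets gave -1.27 ± 0.16 (SD of 3 probe sets). Ppargc1b, a coactivator, had -0.82, and Tfam, the factor of mitochondrial DNA transcription, 0.37. Pparg, the adipocyte receptor, was above the floor in the wild-type pool alone, at least 5.40-fold lower, and it also stands in the adipocyte list. The other receptors and coactivators of the list lay within 1.5-fold.

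**Figure D4:**
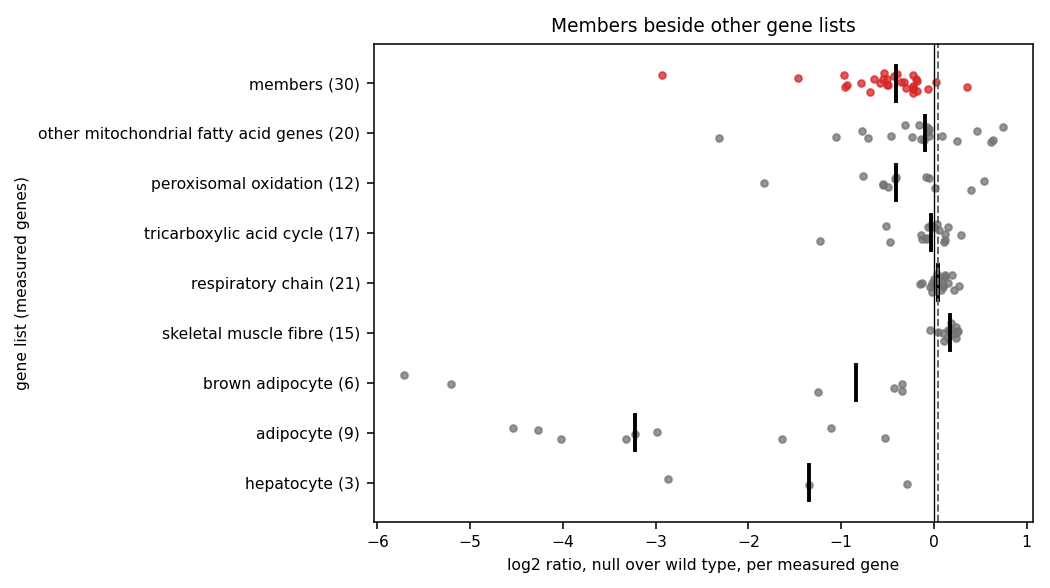
Log2 ratio, null over wild type, of each measured gene of 9 lists, with the number of measured genes after the name and a black bar at the median. The solid line is 0 and the dashed line the median of all measured genes (0.04). The oxidation enzymes (red, median -0.41) lie left of the tricarboxylic acid cycle and respiratory chain genes (-0.03 and 0.05), and the adipocyte markers farthest left (median -3.22).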

How the data were processed

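The authors deposited 1 table of MAS5 signal intensity per probe set and array, on a linear scale. Per the submitters' processing notes these are MAS5 values, of a version not given here. The equal trimmed means show scaling before deposit. Groups came from the source labels, and no column was left unmapped (0 of other samples). Each array was set to a 2% trimmed mean of 500. The 64 control probe sets were left out, and 34945 probe sets had 1 symbol, 932 several and 9160 none here. With 1 array per group no test was run. The procedure was tested on simulated data, with a check that left out the largest simulated decreases. Python 3.11.15 with pandas and statsmodels was used.

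Members and lists (the 7 role groups, other fatty acid genes, peroxisomal oxidation, regulators, tricarboxylic acid cycle, respiratory chain, and markers of brown adipocytes, adipocytes, hepatocytes, skeletal muscle fibres, heart muscle and neutrophils) were chosen with earlier results of these data known. The text names every member, list genes past 1.5-fold in the pathway and regulator lists, the 2 brightest genes of each other list by wild-type signal, Kdm3a, Ppara, Cpt1b and Slc25a20, and any gene it says was chosen after its values were seen. Genes above the floor on 1 array only have a bound against the floor, and of these the members, the pathway and regulator genes and some markers are named. Promoters were shown for up to 4 members with a motif, lowest log2 ratio first. Alternatives were the deposited values, quantile, median and loess (span 0.4) normalization, floors at the 40th and 75th percentile, no floor with a pseudocount of 16, the brightest or median probe set, no _x_at or _s_at probe sets, a 2-fold limit and, added after seeing the data, probe sets that pass the floor in at least 1 pool.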

Additional observations from a re-analysis of the deposited data

How the results depend on the processing

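Over 11 alternative settings the median log2 ratio of the members stayed between -0.51 and -0.40, and 26 of the 30 members were below 0 in every setting that measured them. Among all measured genes the share below 0 ranged from 41.7% to 50.7% over these settings. The 8 members at least 1.5-fold lower stayed so in every setting that measured them. Several settings could not change them. The deposited values already had equal trimmed means. All of the 8 but Acaa2 had 1 measured probe set, so the brightest, median and _x_at or _s_at settings left their values as they were. Acad10 and Acsf3 fell under the floor at the 75th percentile, so 6 of the 28 members measured there remained, against 5.06% of all measured genes. Setting the median log2 ratio to 0 raised the count to 11, against 7.29% of all measured genes, and loess raised it to 14, against 7.15%. A 2-fold limit lowered the count to 2, by its construction, against 2.37% of all measured genes. Loess subtracts the trend of the ratio with mean signal. All genes with a mean signal of at least 2000, as 22 of the 30 members had, had a median log2 ratio of 0.12 before it. The cause of the rise under loess was not tested. Acad9, Hsd17b10 and Mlycd changed sign in some settings. No paired analysis was possible because each genotype has 1 pooled array without a replicate number. Signals near the floor, as for Acsf3, limit what can be read from dim members, and no setting covers variation between mice.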

Other observations

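Members and other genes of like function differed in direction. The log2 ratios of the acyl-CoA synthetases ranged from -2.93 for the member Acsl5 to 0.75 for Acsl6. Those of the thioesterases ranged from -2.31 for Acot11 to 0.36 for the member Acot13. Of the ketone body enzymes, Bdh1 had 0.64 ± 0.09 (SD of 2 probe sets) and Oxct1 -0.08 ± 0.07 (SD of 4 probe sets). Oxct1 was chosen after its values were seen.

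Markers of heart muscle and neutrophils were read on the same arrays. Of 7 heart muscle genes 1 was measured, Myl4 at -0.28, 5 were under the floor on both arrays, and Tnnt2 was above it in the wild-type pool alone, at least 1.45-fold lower. Of 10 neutrophil genes Cxcr2 was under the floor on both arrays and Retnlg had no probe set with 1 symbol. Of the rest 1 was measured, Ngp at 2.63, and 7 passed the floor in the null pool alone. These were S100a8, S100a9 and Camp, at least 12.9-fold, 11.9-fold and 4.84-fold higher, and Lcn2, Mpo, Ltf and Elane, at least 2.59-fold, 2.01-fold, 1.93-fold and 1.28-fold higher. S100a8 and S100a9 had the highest signals of the list in the null pool, 2356 and 2161. The summed signals were 950 in the wild-type pool and 8643 in the null pool. Here too, more cells of a type and more RNA per cell cannot be told apart, and the makeup of the pools was not tested.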
